A study of Mus musculus with 35 samples.

Results

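The interferon-stimulated genes described here are 31 genes chosen by symbol, each found as 1 row among the 53465 genes of the deposited count table. They were followed in all 35 RNA-seq libraries by organ, day and Smad4 label. By role they were 4 sensors of foreign nucleic acid (Ddx58, Ifih1, Dhx58 and Zbp1), 4 transcription factors (Stat2, Irf1, Irf7 and Irf9), 8 effectors of the Ifit, Oas and Rsad2 kind (Ifit1, Ifit2, Ifit3, Oas1a, Oasl1, Oasl2, Rsad2 and Cmpk2) and 4 GTPases (Mx1, Mx2, Gbp2 and Gbp3). A further 6 belong to ISG15 conjugation and ADP-ribosylation (Isg15, Usp18, Trim25, Dtx3l, Parp9 and Parp14), and the last 5 were Bst2, Ifi35, Ifi44, Rtp4 and Xaf1.

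Type I and type III interferons signal through JAK kinases to a complex that holds STAT2 and IRF9 and binds the interferon-stimulated response element (ISRE) in the promoters of such genes. Type II interferon (interferon-γ) acts on the gamma-activated site (GAS), and genes such as Irf1 and the Gbp GTPases respond to it strongly. In tumors, the program is known from cells that sense their own nucleic acid and from cells exposed to interferon made by immune cells.

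The study asked how restoring Smad4, a transcription factor of the TGFβ pathway, acts on pancreatic ductal adenocarcinoma (PDAC) cells in 3 organs. All libraries came from KC-shSmad4 cells, which carry Ptf1a-Cre (active in the pancreas lineage), an mKate2 reporter with rtTA3 and a doxycycline-inducible shRNA against Smad4, and were transduced with luciferase. The cells were injected into the pancreas, the spleen (for liver metastases) or the tail vein (for lung metastases) of female Foxn1nu athymic nude mice of 6 to 8 weeks, which lack T cells but keep macrophages, neutrophils and NK cells. In the paper, every host was fed doxycycline chow, which was withdrawn for the Smad4 on groups. Withdrawal came after 4 weeks of growth in the pancreas, after 5 in the liver and after 6 in the lungs. Sorted mKate2-positive tumor cells were sequenced on day 7 or day 14 from 1 mouse per library. Pancreas groups had 3 libraries labelled off and 2 labelled on for day 7, then 2 and 3 for day 14. Liver groups had 2 off and 3 on, then 3 of each, while lung groups had 4 off and 2 on, then 4 of each.

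Libraries held 11885461 to 43571007 counts, so 3 counts lay between 0.0689 and 0.252 CPM (counts scaled to a library's TMM-normalized size), which covers counting error only. Smad4 mRNA went against the labels: it was 69.9 to 143 CPM in the 18 libraries labelled off and 14.8 to 22.4 CPM in the 17 labelled on, so the groups are called by their labels and every fold change is labelled on over labelled off. Whether labels or columns of the count table were exchanged was not tested. A label here therefore does not show which libraries came from mice without doxycycline. Epithelial tumor markers were found in every library (the summed level of 6 genes was 2549 to 16476 CPM). In the 10 pancreas libraries they summed to 2549 to 7846 CPM, below 7 fibroblast genes at 8783 to 24253 CPM. Liver day 7 labelled off replicate 2 likewise held 3766 CPM of the tumor markers and 35782 CPM of the fibroblast genes. In 3 liver libraries, the expression of all genes correlated more with another organ's libraries than with the liver's. The first, liver day 7 labelled off replicate 2, was the only library labelled paired-end. It held 257 CPM of 4 pancreatic acinar genes, against 4.88 CPM in replicate 1, and its median correlation was 0.949 with pancreas and 0.892 with liver libraries. The others were liver day 7 labelled off replicate 1 (0.953 with lungs, 0.949 with liver) and liver day 14 labelled off replicate 1 (0.938 with lungs, 0.934 with liver). In 10 liver and lung libraries the mitochondrial gene mt-Co3 had counts, while it was at 0 in the other 25.

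Promoter sequences were looked up because the 2 interferon signals act through different DNA elements. RefSeq promoter windows of 300 bases (250 before to 50 after the start; build GRCm38.p6) were found for 23 of the 31 genes, and not for Zbp1, Mx1, Usp18, Mx2, Parp9, Dhx58, Parp14 and Rtp4. The ISRE core, searched as GAAANNGAAA on both strands, was in 11 of the 23 genes (47.8%), against 3.99% of the 27025 genes with a window, and the GAS core, searched as TTCNNNGAA, which reads the same on both strands, was in 5 (21.7%), against 9.55%. Oas1a and Bst2 held both. A match is a run of letters and not a measured site. Shown are the windows from 150 bases before to 10 after the start, in the gene's direction, for 5 genes on which the results below turn, with ISRE matches in capitals, and for Irf1, with its GAS match in capitals. They lie at chr4:156200809-156200968 (minus strand, Isg15), chr19:34640739-34640898 (plus strand, Ifit1), chr3:142620513-142620672 (plus strand, Gbp2), chr5:120907516-120907675 (minus strand, Oas1a), chr12:26456443-26456602 (minus strand, Rsad2) and chr11:53769864-53770023 (plus strand, Irf1).
Isg15: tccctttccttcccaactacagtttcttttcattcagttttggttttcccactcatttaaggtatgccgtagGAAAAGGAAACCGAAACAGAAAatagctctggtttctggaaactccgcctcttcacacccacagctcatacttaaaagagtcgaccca
Ifit1: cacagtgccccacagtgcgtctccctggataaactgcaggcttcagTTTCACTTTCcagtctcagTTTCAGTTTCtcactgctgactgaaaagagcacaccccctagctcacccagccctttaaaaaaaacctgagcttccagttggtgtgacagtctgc
Gbp2: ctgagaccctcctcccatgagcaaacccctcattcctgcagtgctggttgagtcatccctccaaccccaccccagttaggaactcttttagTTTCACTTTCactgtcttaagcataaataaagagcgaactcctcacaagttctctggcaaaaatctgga
Oas1a: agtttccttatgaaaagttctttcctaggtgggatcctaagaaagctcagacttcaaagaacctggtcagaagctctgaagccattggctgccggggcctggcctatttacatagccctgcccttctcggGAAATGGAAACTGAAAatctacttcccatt
Rsad2: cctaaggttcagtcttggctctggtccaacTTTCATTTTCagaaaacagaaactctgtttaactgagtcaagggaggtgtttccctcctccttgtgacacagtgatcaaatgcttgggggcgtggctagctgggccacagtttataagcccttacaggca
Irf1: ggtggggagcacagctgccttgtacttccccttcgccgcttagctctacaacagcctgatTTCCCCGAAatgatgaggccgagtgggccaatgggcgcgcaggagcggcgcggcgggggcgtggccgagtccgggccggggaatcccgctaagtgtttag

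Levels differed widely between the genes. Scaled to library size and exon length (FPKM), the median over the 35 libraries was highest for Bst2, which tethers budding virus particles, at 73.1 FPKM, and for Irf1 at 51.1. Ifi35 (19.7), the ubiquitin-like modifier Isg15 (17.1) and Irf7 (16.1 FPKM) followed. The lowest medians were those of Rsad2 (viperin, 0.839 FPKM), Mx1 (0.884) and Ifi44 (1.18). Every one of the 31 genes had counts in every library, with a minimum of 9. The range over libraries was 70.8-fold for Rsad2, 45.9-fold for Ifit3 and 35.1-fold for Usp18, the protease that removes ISG15. It was 1.93-fold for Dtx3l, 2.47-fold for Parp9 and 2.79-fold for Ddx58 (RIG-I), a sensor of viral RNA. Of the 31 genes, 11 were highest in liver day 14 labelled off replicate 1, 11 in liver day 7 labelled on replicate 2, 5 in liver day 14 labelled on replicate 1 and 4 in lungs day 7 labelled on replicate 1. Reads shared by near-identical copies (Ifit3 with Ifit3b, Oas1a with Oas1b and Oas1g, the Gbp family) could have been split between them, and values of overlapping or adjacent genes (Parp9 with Dtx3l, Rsad2 with Cmpk2) depend on how strand was treated in counting, which is not given in the sources used here.

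**Figure D1:**
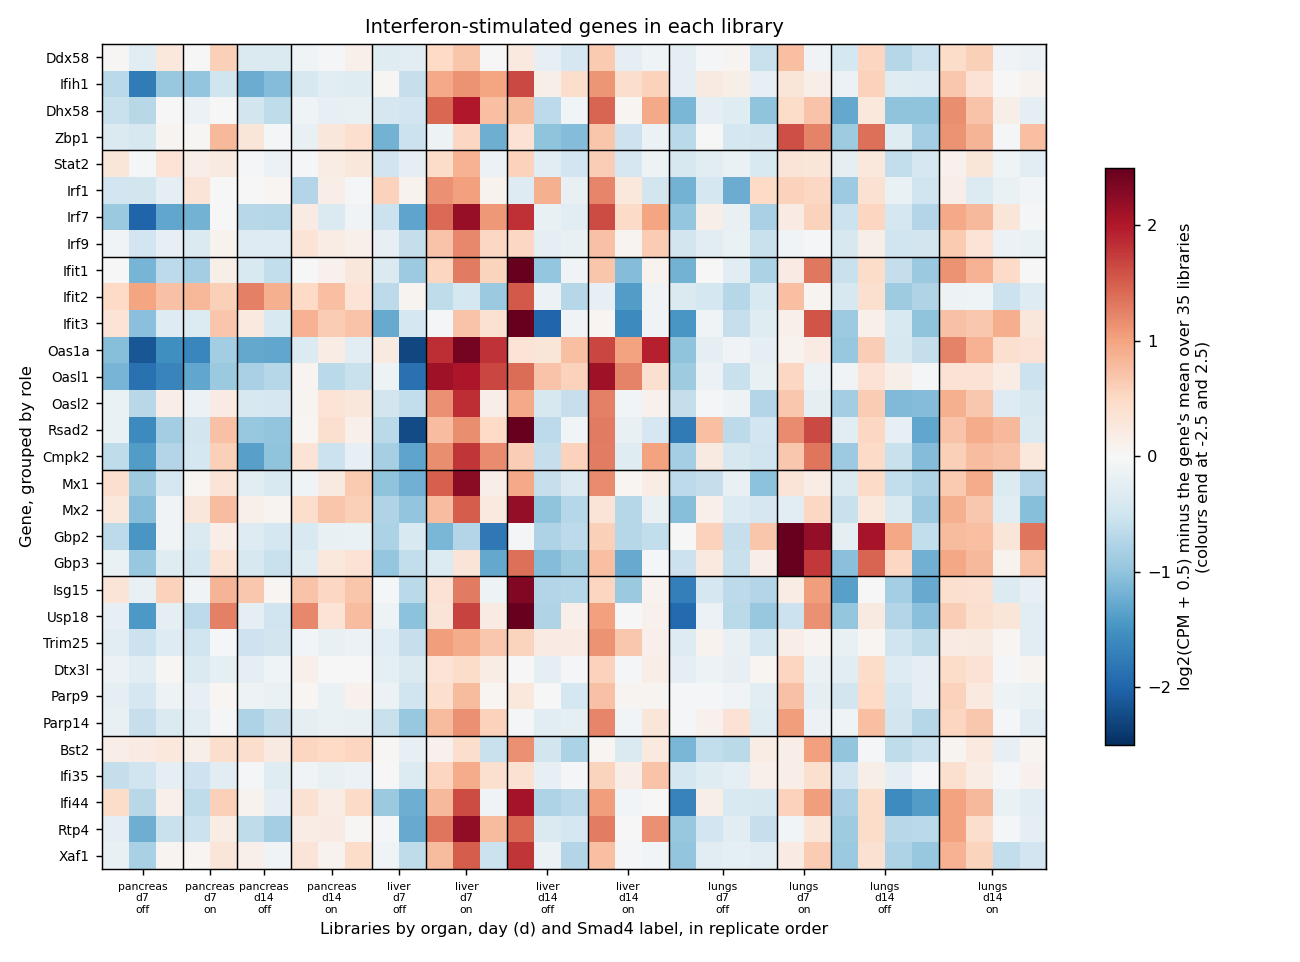
Each row is 1 of the 31 genes, in blocks by role, and each column is 1 of 35 libraries. Colours give log2(CPM + 0.5) minus the gene's mean over all libraries, ending at -2.5 and 2.5. Liver day 14 labelled off replicate 1, the first column of its block, is red in most rows, and Gbp2 and Gbp3 are reddest in lungs day 7 labelled on.

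An interferon score was computed for each library as the mean over the 31 genes of log2(CPM + 0.5), with each gene centered on its own mean over the 35 libraries. The score is a description and was not tested. The score was higher in the libraries labelled on in all 6 pairs of groups, by 0.38 (pancreas day 7), 0.46 (pancreas day 14), 1.29 (liver day 7), 0.15 (liver day 14), 0.98 (lungs day 7) and 0.62 (lungs day 14) on the log2 scale. The SD between libraries, pooled over both labels, was 0.36, 0.05, 0.43, 0.73, 0.26 and 0.47 in the same order. Labelled on and off libraries did not overlap in pancreas day 14, liver day 7 and lungs day 7, and overlapped in the other 3 pairs. In lungs day 14, where same-numbered libraries deviated together, the score was higher labelled on in each of the 4 mouse numbers, at -0.63, 0.50, -0.48 and -0.74 labelled off and 0.65, 0.53, 0.03 and -0.08 labelled on for replicates 1 to 4. The lowest score of all was -0.83 in pancreas day 7 labelled off replicate 2. The highest was 1.19 in liver day 14 labelled off replicate 1, next to 1.18 in liver day 7 labelled on replicate 2.

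**Figure D2:**
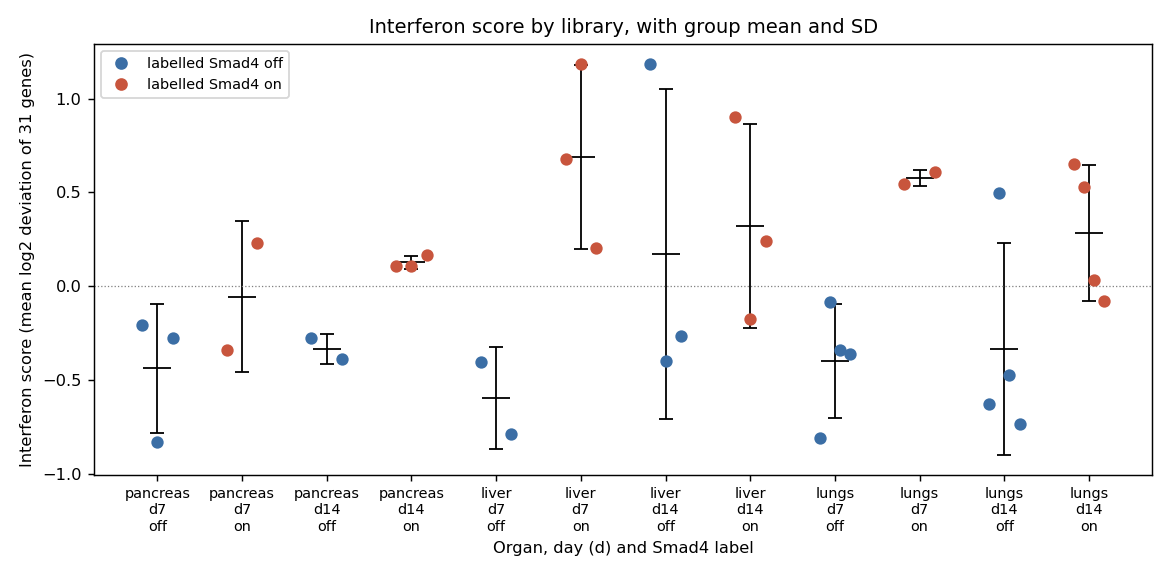
The interferon score (y axis, log2 units) is plotted for each library, grouped by organ, day and Smad4 label on the x axis, with black bars for the group mean and SD. Blue libraries labelled off lie mostly below 0, except liver day 14 replicate 1 at 1.19 and lungs day 14 replicate 2 at 0.50.

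In primary tumors of the pancreas on day 14, Oas1a, Rsad2 and Usp18 were higher in the libraries labelled on. These 3 of the 31 genes were called, meaning that they differed more than 2-fold with an adjusted P value below 0.05 (quasi-likelihood test of edgeR, Benjamini-Hochberg over 14234 genes), where 4.64% of all genes were called. Oas1a, which makes the 2-5A signal that activates RNase L, was at 5.46 and 5.37 CPM in the libraries labelled off and 10.9, 16 and 11.4 CPM in those labelled on, a log2 fold change of 1.26 ± 0.21 (SE, adjusted P = 0.00871, edgeR). Rsad2, an enzyme that makes a chain-terminating nucleotide, was at 1.62 and 1.57 and then 3.74, 4.90 and 3.96 CPM (1.42 ± 0.28, adjusted P = 0.0160, edgeR). Usp18 was at 4.58 and 3.71 and then 13.1, 6.96 and 9.64 CPM (1.28 ± 0.28, adjusted P = 0.0235, edgeR). In each of these genes every library labelled on lay above every library labelled off. Sequencing depth went with the label here. It was 28557488 and 32195795 counts labelled off and 12200163 to 14255679 counts labelled on. Label and depth cannot be told apart in this comparison, and the part of depth was not tested.

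Most other members were higher by less than a factor of 2. At any fold, 12 genes passed the adjusted P value in the pancreas on day 14, all higher, against 6.60% of all genes. They included Ifih1 (MDA5), a sensor of long viral RNA, at 9.01 and 9.98 against 16.3, 18 and 17.7 CPM (0.89 ± 0.14, adjusted P = 0.00705, edgeR). Irf7, the factor that amplifies type I interferon, was at 25.2 and 24.8 against 47.0, 31.9 and 38.6 CPM (0.67 ± 0.16, adjusted P = 0.0293, edgeR), and Irf9, the DNA-binding partner of STAT2, had a log2 fold change of 0.57 ± 0.09. The median log2 fold change of the 31 genes was 0.50, against 0.02 for all genes, and 29 of 31 were higher, against 52.2% of all genes. In 22 of them every library labelled on was above both labelled off, as in 21.9% of all genes, and 19 were higher at an unadjusted P value under 0.05, as were 14.6%. Ifit2 and Irf1 were the 2 lower ones, with log2 fold changes of -0.55 ± 0.19 and -0.16 ± 0.27 (adjusted P = 0.103 and 0.763, edgeR). Summed leukocyte markers were 21.0 and 33.3 CPM in the libraries labelled off and 32.7, 41.2 and 52.1 CPM in those labelled on. Ductal tumor markers did not overlap, at 4669 and 4256 against 7846, 5591 and 5494 CPM. Neither did hepatocyte markers, at 1.40 and 2.14 against 10.0, 5.74 and 8.24 CPM, while fibroblast and acinar markers overlapped. The part of these markers in the result was not tested. The 3 calls rest on 2 libraries labelled off: without replicate 1 of them, 1 member (Ifit3) was called, and without replicate 2, 0 were. In a single edgeR fit of all 12 groups, which called 16 of 17547 genes, none of the 31 was called (adjusted P = 0.479 for Oas1a, 0.747 for Rsad2 and 0.740 for Usp18, edgeR). Rsad2 was not called without labelled on replicate 2, nor Usp18 without labelled on replicate 3. Log2 fold changes of the 3 genes stayed between 1.02 and 1.49 over all libraries left out.

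On day 7, none of the 31 genes was called in the pancreas, where 1.33% of 14439 genes were. An unadjusted P value under 0.05 was reached by 3 members, all higher, against 11.8% of all genes, and 28 of 31 had a log2 fold change above 0, against 51.2%. The lowest was that of Irf1, at 123, 125 and 144 CPM labelled off and 214 and 171 CPM labelled on (0.57 ± 0.14, adjusted P = 0.0792, edgeR). Cmpk2, a mitochondrial nucleotide kinase next to Rsad2, was at 2.70, 1.39 and 2.47 against 3.19 and 7.01 CPM (1.23 ± 0.44, adjusted P = 0.165). Zbp1, a sensor of Z-form nucleic acid, was at 8.17, 7.92 and 11.2 against 10.8 and 18.9 CPM (0.72 ± 0.28, adjusted P = 0.193). The 2 libraries labelled on differed from each other: replicate 2 was the higher in 29 of the 31 genes. Without it the median log2 fold change of the members went from 0.36 to 0.06. Fibroblast markers were at 16852, 11805 and 16621 CPM labelled off and 24253 and 23295 CPM labelled on. Acinar markers (1957, 2427 and 1495 against 517 and 646 CPM) and macrophage markers (146, 115 and 142 against 81.3 and 101 CPM) were lower labelled on. Leukocyte and ductal tumor markers overlapped, and the part of all these was not tested.

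In liver metastases on day 7 the differences were the largest of the 6 comparisons by their median. The median log2 fold change of the 31 genes was 1.21, against -0.06 for all genes, and 19 genes were over 2-fold higher in the libraries labelled on. A log2 fold change above 0 was found for 29 of 31, against 46.4% of all genes. With 2 libraries labelled off, none of the 31 genes was called by edgeR, where 0.444% of 16007 genes were. An unadjusted P value under 0.05 was reached by 19 members, all higher, against 13.9% of all genes. The lowest adjusted P value among them was 0.0578. DESeq2 called 17 of the 31, with 2842 of 16007 genes called in all, and a single edgeR fit of all 12 groups called 12, with 3097 of 17547 in all. In 23 of the 31 genes every library labelled on lay above both libraries labelled off, a pattern held by 27.1% of all genes.

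Among the transcription factors, Irf7 was at 28.2 and 16.1 CPM in the liver libraries labelled off on day 7 and 109, 186 and 87.0 CPM in those labelled on (2.44 ± 0.47, adjusted P = 0.0689, edgeR). Irf1 overlapped between the labels, at 257 and 183 against 382, 348 and 182 CPM. The sensors Ifih1 (1.21 ± 0.26) and Dhx58 (LGP2, 2.01 ± 0.48) did not overlap, while Zbp1 did. Among the effectors, Oas1a and Oasl1 had the largest differences after Cmpk2. Oas1a was at 16.3 and 2.48 against 51.1, 74.7 and 49.8 CPM (2.54 ± 0.83, adjusted P = 0.134), and Oasl1, a regulator of Irf7 translation, at 24.8 and 7.06 against 119, 111 and 88.0 CPM (2.64 ± 0.60, adjusted P = 0.0805). The lowest P values were those of Cmpk2 (2.30 and 1.49 against 10.7, 16.7 and 10.8 CPM, 2.65 ± 0.42), Trim25, a ubiquitin ligase that activates RIG-I (62.5 and 50.7 against 158, 145 and 121 CPM, 1.24 ± 0.22), and the ADP-ribosyltransferase Parp14 (1.53 ± 0.27). In each of these genes even the lowest library labelled on was above the higher library labelled off. The GTPase Mx1, which blocks viral nucleocapsids, had the largest log2 fold change, 2.99 ± 0.77, at levels of 1.35 and 1.12 against 10.0, 17.4 and 3.69 CPM. Gbp2, which attacks the vacuoles of intracellular microbes, was at 15.0 and 20.2 against 11.8, 15.8 and 7.30 CPM (-0.67 ± 0.39) and Ifit2 had a log2 fold change of -0.52 ± 0.40. These were the 2 members lower in the liver libraries labelled on.

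The comparison rests in part on the paired-end library. Without it, leaving 1 library labelled off, the median log2 fold change of the members was 1.05 and 28 of 31 were higher. Without replicate 1 instead, the median was 1.48. Shares of all genes higher in these refits are not given. Within the libraries without mt-Co3 counts (1 off, 2 on) the score differed by 1.34, and within those with them (1 off, 1 on) by 0.99. Summed leukocyte markers moved with the label, at 5.88 and 7.68 CPM labelled off and 15.0, 17.0 and 19.8 CPM labelled on, as did macrophage markers at 29.9 and 34 against 45.6, 62.7 and 91.9 CPM. Hepatocyte markers were at 16.4 and 1.32 CPM labelled off and 55.3, 73.6 and 139 CPM labelled on, and ductal tumor markers at 12137 and 3766 against 15086, 16476 and 15269 CPM. Neutrophil markers overlapped (13.5 and 0.785 against 28.4, 15.9 and 5.38 CPM). The part of these markers in the result was not tested, and in bulk libraries more cells of a type and more RNA per cell cannot be told apart.

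On day 14 the liver comparison turned on single libraries. By edgeR none of the 31 genes was called and neither was any other (0% of 14947 genes). DESeq2 called 332 of 14947 genes, among them 1 member, Oas1a (1.08, adjusted P = 0.0324). The median log2 fold change was 0.24, with 19 genes higher and 12 lower, where 49.7% of all genes were higher. A single member reached an unadjusted P value under 0.05, against 4.61% of all genes. In the labelled off group, replicate 1 was the highest library in 29 of the 31 genes. Ifit3, which with Ifit1 binds foreign RNA, was at 103, 2.25 and 9.78 CPM in the libraries labelled off and 10.8, 3.12 and 9.78 CPM in those labelled on (-2.37 ± 1.29, adjusted P = 0.616, edgeR). Ifit1 was at 99.2, 4.73 and 9.05 against 16.1, 4.31 and 10.3 CPM, and Isg15 at 66.5, 7.64 and 7.69 against 19.1, 6.64 and 13.9 CPM. The same library was the only one of 35 with more than 6 counts of Ifnb1 (interferon-β), with 46, or 1.38 CPM. Irf1 and Oas1a were not high there, at 138 and 17.7 CPM in that library against 321 and 152 CPM of Irf1 and 17.3 and 23.8 CPM of Oas1a in the others of its group.

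Oas1a was the member with the lowest P value in the liver on day 14 and the only one whose labels did not overlap, at 17.7, 17.3 and 23.8 against 45.3, 28.3 and 54.6 CPM (1.09 ± 0.28, adjusted P = 0.357, edgeR), where 8.50% of all genes showed that pattern. Parp14 was next (0.72 ± 0.33, adjusted P = 0.542). Without labelled off replicate 1 the median log2 fold change of the members was 0.72, 30 of 31 were higher and 0 were called. Without labelled on replicate 1, the library with the highest summed leukocyte (88.4 CPM) and neutrophil markers (253 CPM) of all 35, the median was -0.20 and 11 were higher. That library was the highest of its group in 27 of the 31 genes, and the part of those cells was not tested. Leaving out either library, each the highest of its group in most members, moves the median by construction. Shares of all genes higher in these refits are not given.

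In lung metastases on day 7 all 31 genes were higher in the 2 libraries labelled on, against 50.4% of all genes. Their median log2 fold change was 0.92 (all genes, 0.00). None was called by edgeR, and neither was any other gene (0% of 15193), while 17 members reached an unadjusted P value under 0.05, against 2.41% of all genes. DESeq2 called 3 of the 31 (Gbp2, Gbp3 and Zbp1) and 100 of 15193 genes in all. In 20 of the 31 genes both libraries labelled on lay above all 4 labelled off, as in 5.00% of all genes.

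The lowest P values in the lungs on day 7 were those of Zbp1, Gbp3 and Gbp2. Gbp3 was at 4.37, 7.87, 4.27 and 7.47 CPM in the libraries labelled off and 46.6 and 23.6 CPM in those labelled on (2.55 ± 0.38, adjusted P = 0.277, edgeR). Gbp2 was at 26.9, 39.8, 17.7 and 43.2 against 171 and 123 CPM (2.20 ± 0.37, adjusted P = 0.440, edgeR). Zbp1 was at 6.43, 10.6, 7.71 and 7.53 against 33.7 and 25.7 CPM (1.89 ± 0.24, adjusted P = 0.193, edgeR). In these 3 genes the labels did not overlap. The 2 libraries labelled on differed by gene: replicate 1 was the higher in 15 genes, among them Gbp2, Gbp3 and Parp14 (82.5 against 35.8 CPM). Replicate 2 was the higher in 16, among them Ifit3 (31.9 against 11.5 CPM), Ifit1, Isg15 and Bst2. Within the libraries without mt-Co3 counts (3 off, 1 on) the score differed by 0.96, and within those with them (1 off, 1 on) by 0.97. Summed leukocyte markers were 43.7, 41.4, 61.1 and 9.12 CPM labelled off and 46.1 and 7.36 CPM labelled on, so that both labels held a library under 10 CPM. Fibroblast markers did not overlap, at 1988, 1026, 847 and 420 against 396 and 159 CPM. Neither did hepatocyte markers (20.7, 13.9, 26.0 and 10.2 against 9.55 and 9.15 CPM) or acinar markers (8.36, 8.37, 12.2 and 5.68 against 3.58 and 3.40 CPM). Ductal tumor and macrophage markers overlapped, and the part of all these was not tested.

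On day 14 in the lungs, 30 of 31 genes were higher in the libraries labelled on, against 49.4% of all genes, with a median log2 fold change of 0.58 (all genes, 0.00). None was called by edgeR, where 0.0271% of 14751 genes were, and 10 reached an unadjusted P value under 0.05, against 5.17% of all genes. The lowest P value was that of Ifit3, at 5.30, 11.4, 7.83 and 4.92 CPM in the libraries labelled off and 17.6, 17.0, 19.9 and 12.7 CPM in those labelled on (1.19 ± 0.28, adjusted P = 0.220, edgeR). DESeq2 called it (1.19, adjusted P = 0.00575), as the single member among 197 genes. It was also the only member whose labels did not overlap, where 2.60% of all genes had every library labelled on higher. With the mouse number as a block, since same-numbered libraries deviated together here, Ifit3 was called (1.24 ± 0.20, adjusted P = 0.0266, edgeR), the single member among 109 genes. The numbers also go with mt-Co3 counts here, present in replicates 3 and 4 of both labels and absent in replicates 1 and 2. Bst2 (27.0, 52.9, 34.8 and 36.9 against 56.2, 64.3, 46.8 and 56.5 CPM, 0.56 ± 0.19, adjusted P = 0.361) and Ifit1 (1.01 ± 0.35, adjusted P = 0.362) were next. Labelled off replicate 2 was the highest library of its group in all 31 genes, with 113 CPM of Gbp2 against 22.8, 52.1 and 17.2 CPM in the others. The same-numbered library of the other label, labelled on replicate 2, had the second highest score of its group (0.53). Leaving out labelled off replicate 2, chosen as the highest of its group, raises the fold changes by construction. In that refit 24 members reached an unadjusted P value under 0.05, the median log2 fold change was 0.99 and 0 were called. The share of all genes under that P value in the refit is not given. Summed leukocyte markers were 28.8, 13.8, 12.6 and 14.4 CPM labelled off and 38.3, 53.5, 24.3 and 19.6 CPM labelled on, and their part was not tested. The score differed by 0.66 within the libraries without mt-Co3 counts and by 0.58 within those with them (2 off and 2 on in each).

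**Figure D3:**
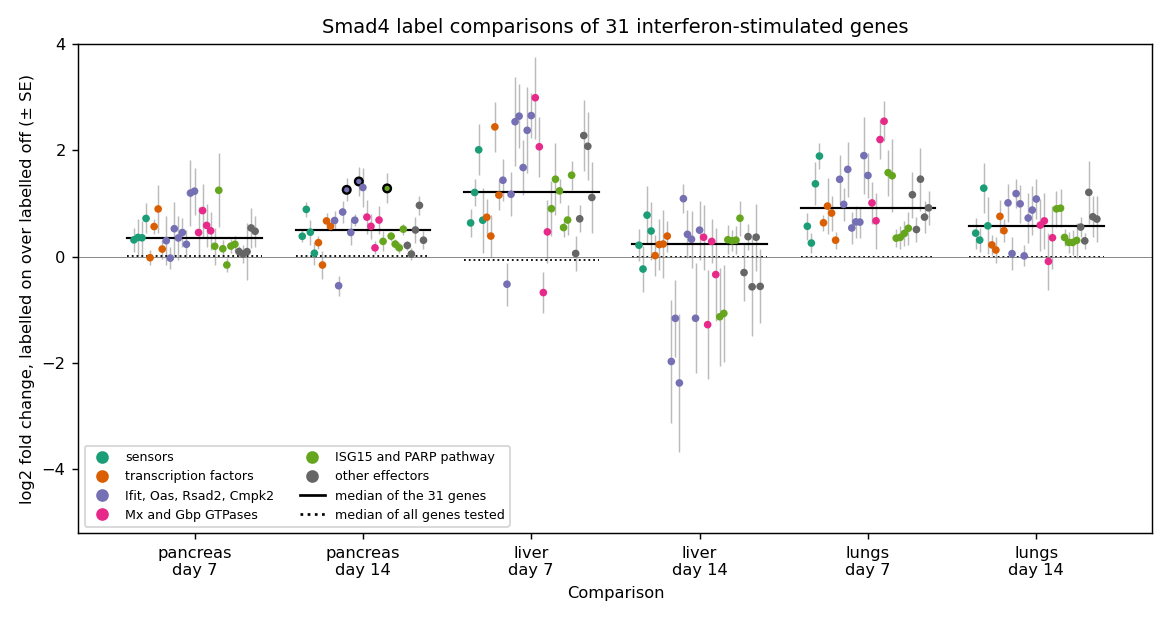
The log2 fold change of each of the 31 genes, labelled on over labelled off, is plotted with its SE for the 6 comparisons, colored by role. Solid lines mark the median of the 31 genes, dotted lines the median of all genes tested, and black rings the 3 called genes, all in the pancreas on day 14. The solid line is above the dotted one in every comparison, by the most in liver day 7 (1.21 against -0.06).

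Between organs, averaged over day and label in a single fit of all 12 groups, Oas1a, Oasl1, Ifih1 and Irf7 were higher in the liver than in the pancreas, and Gbp2 and Gbp3 were higher in the lungs than in either. Against the pancreas, 4 members were higher and 1 was lower in the liver, where 20.9% of 17547 genes were called. Oas1a lay at 2.78 to 16 (median 5.94, n = 10) CPM in the pancreas and 2.48 to 74.7 (median 28.3, n = 11) CPM in the liver (2.0 ± 0.26, adjusted P = 8.66e-07, edgeR). Oasl1 lay at 7.11 to 28.7 (median 14.7, n = 10) CPM in the pancreas and 7.06 to 120.1 (median 64.9, n = 11) CPM in the liver (1.86 ± 0.22, adjusted P = 1.85e-07). Ifih1 (1.46 ± 0.18, adjusted P = 3.37e-07) and Irf7 (1.33 ± 0.27, adjusted P = 0.000240) were the others. Ifit2, a partner of Ifit1 and Ifit3 in RNA binding, went the other way, with 8.24 to 16.1 (median 11.1, n = 10) CPM in the pancreas and 2.12 to 19.5 (median 4.59, n = 11) CPM in the liver (-1.05 ± 0.24, adjusted P = 0.000837). The organs overlapped in each of these genes. Ifit2 was under 2-fold without liver day 7 labelled off replicate 1, liver day 14 labelled off replicate 2 or 3 or liver day 14 labelled on replicate 2 (to -0.95). Apart from the paired-end library, the 7 fibroblast genes summed highest in the pancreas libraries (8783 to 24253 CPM, against 255 to 4307 CPM in the liver without that library). Which cells expressed these genes was not measured, and their part in the organ differences was not tested.

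Lungs against pancreas gave 3 members, all higher in the lungs (21.8% of all genes called). The libraries also differed in markers of other cells: 4 lung epithelial markers summed to 58.6 to 473 CPM in the lungs and at most 0.667 CPM elsewhere, and the fibroblast genes to 159 to 1988 CPM in the lungs, against 8783 to 24253 CPM in the pancreas. Their part in the organ differences was not tested. Gbp2 was at 17.2 to 171 (median 44.0, n = 14) CPM in the lungs and 9.37 to 29.9 (median 20.9, n = 10) CPM in the pancreas (1.47 ± 0.27, adjusted P = 8.63e-05, edgeR). Oas1a (1.18 ± 0.25) and Gbp3 (1.05 ± 0.36) were also called, though Gbp3 not without pancreas day 7 labelled off replicate 2 or on replicate 1, lungs day 7 labelled off replicate 4 or on replicate 1 or lungs day 14 labelled off replicate 2 (down to 0.87). Gbp3 lay at 3.18 to 8.63 CPM in the pancreas. In the lungs it was at 4.27 to 7.87 CPM labelled off and 46.6 and 23.6 CPM labelled on for day 7. On day 14 it was at 2.56 to 18.8 and 7.04 to 13.3 CPM there. Liver against lungs gave 2, both lower in the liver (8.57% of all genes called): Gbp2, with 7.30 to 40.2 (median 16, n = 11) CPM in the liver (-1.72 ± 0.26, adjusted P = 4.32e-05), and Gbp3 (-1.06 ± 0.34, adjusted P = 0.0285). Gbp3 was no longer called between liver and lungs without liver day 7 labelled off replicate 1 or on replicate 3, liver day 14 labelled off replicate 2 or 3 or on replicate 2, lungs day 7 labelled on replicate 1 or lungs day 14 labelled off replicate 2, where the smallest difference was -0.87. Without the paired-end liver library, 4 members were called between liver and lungs, with Oasl1 and Oas1a higher in the liver beside the Gbp genes, and 7 between liver and pancreas, with Cmpk2 and Rtp4 added. In this refit 1611 of 18638 genes were called between liver and lungs and 3908 between liver and pancreas. With all libraries, the share of members called was not above that of all genes in any of the 3 organ pairs.

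**Figure D4:**
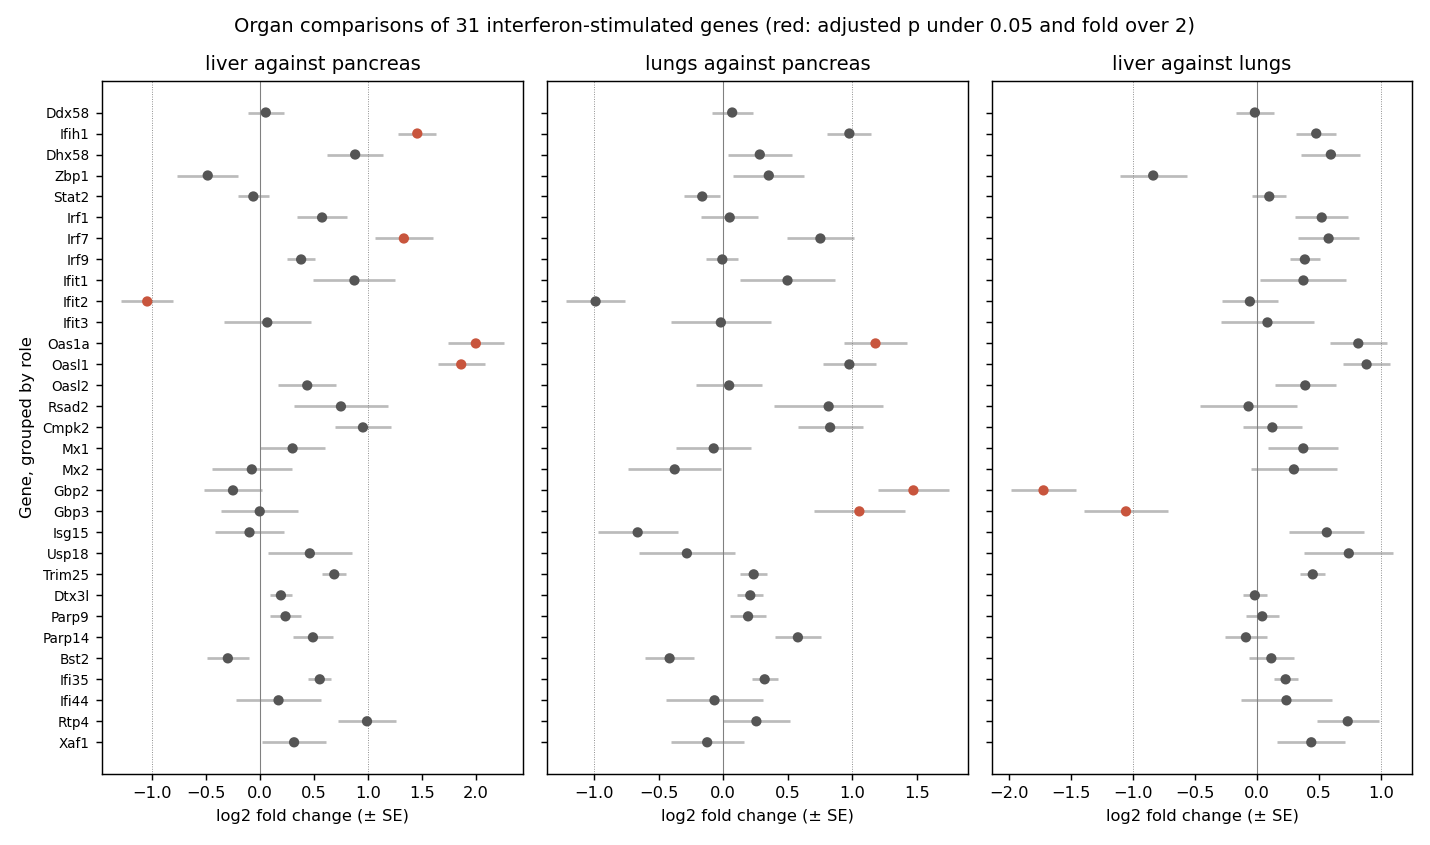
The log2 fold change of each gene between organs, with its SE, is plotted for the 3 organ pairs, and red points passed an adjusted P value under 0.05 and a fold over 2 (dotted lines at -1 and 1). Oas1a and Oasl1 lie farthest to the right in liver against pancreas, and Gbp2 and Gbp3 are the red points in liver against lungs.

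The response to the label was compared between organs by the interaction of organ and label. On day 7 it differed between liver and pancreas in 2 members, Oasl1 (2.28 ± 0.63, adjusted P = 0.0327, edgeR) and Trim25 (1.18 ± 0.32, adjusted P = 0.0327), where 5.08% of 17547 genes were called. Both log2 fold changes were higher in the liver. Between liver and lungs it differed in 2 members in opposite directions (11.6% of all genes called). The log2 fold change of Oasl1 was higher in the liver by 2.08 ± 0.61 (adjusted P = 0.0230, edgeR), and that of Gbp2 was higher in the lungs, with a difference of -2.80 ± 0.75 (adjusted P = 0.0146, edgeR). Without the paired-end liver library, neither was called (1.45 for Oasl1, adjusted P = 0.161, and -2.57 for Gbp2, adjusted P = 0.0765, edgeR), nor was any member between liver and pancreas. Oasl1 and Trim25 were also no longer called between liver and pancreas without a filter on low counts or in a fit of only the groups compared. The same held for both without pancreas day 7 labelled off replicate 1, pancreas day 7 labelled on replicate 1 or 2 or liver day 7 labelled on replicate 1 or 2, for Trim25 without pancreas day 7 labelled off replicate 3 and for Oasl1 without liver day 7 labelled on replicate 3. Without pancreas day 7 labelled on replicate 1, the differences were 2.04 for Oasl1 and 0.92 for Trim25 (adjusted P = 0.166 and 0.213, edgeR). Between liver and lungs, Oasl1 was also lost without a filter, in a fit of only the groups compared and without lungs day 7 labelled on replicate 2 (1.73). Between lungs and pancreas on day 7 none of the 31 was called (0.0114% of all genes, with 1 member, Gbp2, and 10.0% of all genes at an unadjusted P value under 0.05; Gbp2 differed by 1.62 ± 0.77).

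On day 14 no member and no other gene differed in response between any organs (0% called in all 3 pairs, edgeR). An unadjusted P value under 0.05 was reached by 4 members in liver against pancreas (4.13% of all genes), 4 in liver against lungs (3.97%) and 0 in lungs against pancreas (3.46%). Day 14 did not differ from day 7 in any member or gene of the 3 organs by the same rule (0% called), averaged over labels, with 1 (Oasl1), 2 and 0 members under an unadjusted P value of 0.05 in pancreas, liver and lungs (11.4, 8.88 and 6.39% of all genes), and the lowest of these P values in the liver was that of Rsad2, at 1.34 ± 0.60 (adjusted P = 0.529, edgeR).

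**Figure D5:**
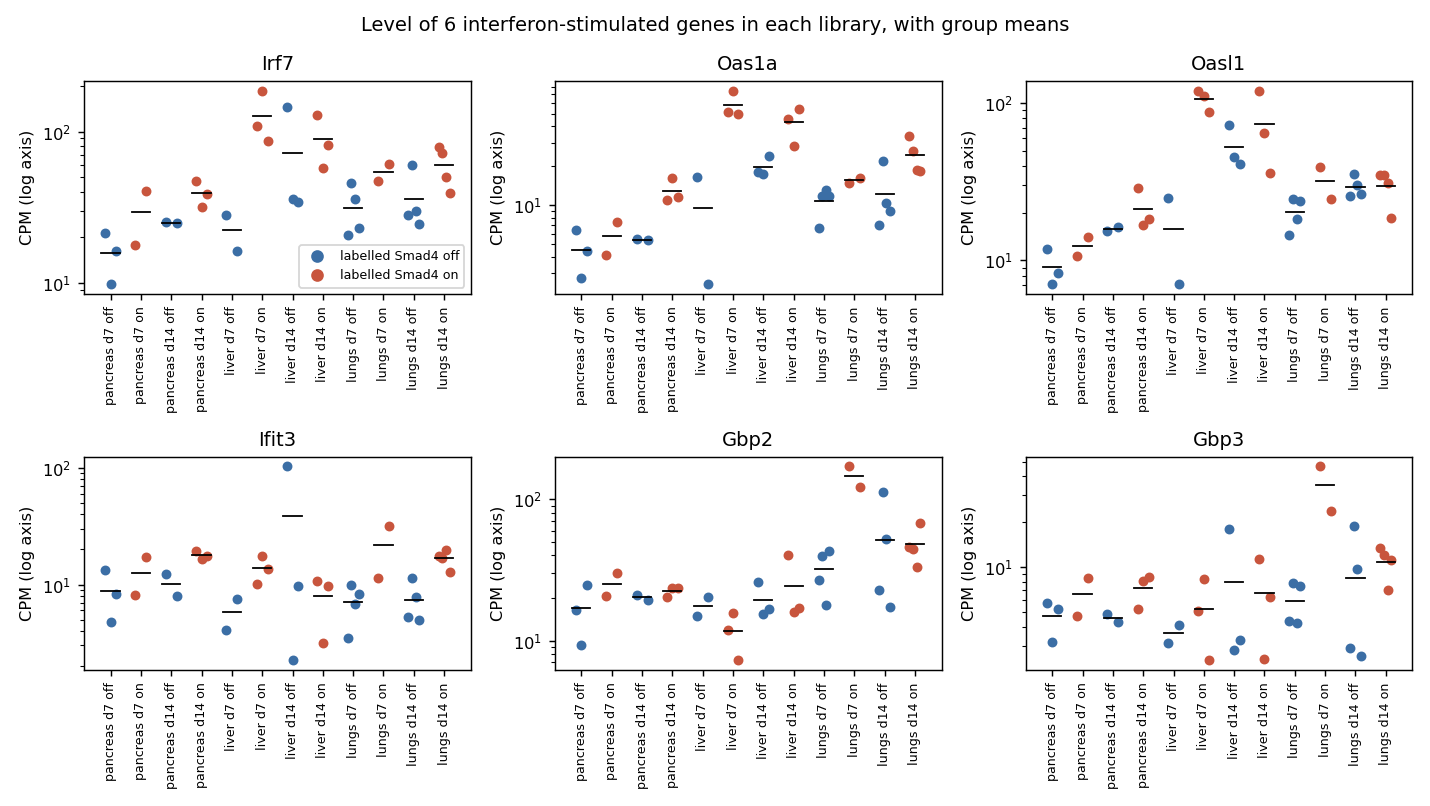
The level of Irf7, Oas1a, Oasl1, Ifit3, Gbp2 and Gbp3 in CPM, on log axes that differ between panels, is plotted for each library by organ, day and label, with black bars for group means. Irf7, Oas1a and Oasl1 are highest in liver libraries labelled on, Ifit3 in liver day 14 labelled off replicate 1 (103 CPM), and Gbp2 and Gbp3 in lungs day 7 labelled on.

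Of the rest of the pathway, the interferon genes themselves were at or near 0. Among 10 of them, Ifna1, Ifna2 and Ifna5 were listed at 0 in all libraries, and only Ifnb1 (46 counts in liver day 14 labelled off replicate 1, at most 6 elsewhere) and Ifng (interferon-γ, 9 counts in lungs day 7 labelled on replicate 1 and 8 in liver day 14 labelled on replicate 1) had more than 4 counts in any library. Ifng was at 0 in lungs day 7 labelled on replicate 2. Libraries of sorted tumor cells do not measure interferon made by other cells, and its part was not tested. Of the 10 receptor and kinase genes, none was called by label in any comparison. The receptor of type III interferon, Ifnlr1, was higher in the liver than in the pancreas (1.53 ± 0.25, adjusted P = 1.64e-05, edgeR), and its response on day 7 was higher in the liver than in the lungs by 3.62 ± 0.73 (adjusted P = 0.00271). It was at 2.06 ± 1.98 CPM (SD, n = 2) in liver day 7 labelled off and 15.1 ± 1.48 CPM (n = 3) in labelled on.

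Of 28 other interferon-stimulated genes, 5 were called higher and 0 lower in the pancreas on day 14, where 4.64% of all genes were called. They were Oas2 (1.34 ± 0.19, adjusted P = 0.00463, edgeR), Trim14 (1.23 ± 0.19, adjusted P = 0.00588), an adaptor of MAVS signaling, the helicase Ddx60 (1.06 ± 0.26, adjusted P = 0.0325) and 2 further genes of the Oas1 family. In the other 5 label comparisons 0 of the 28 were called, and their median log2 fold changes were 0.24, 0.92, 0.38, 0.33 and 0.36 in pancreas day 7, liver day 7, liver day 14, lungs day 7 and lungs day 14. Ifitm1, a membrane protein that blocks viral entry, was at 275 ± 4.4 CPM in liver day 7 labelled off and 17.0 ± 13.1 CPM in labelled on, and the response differed from that in the lungs by -5.22 ± 0.83 (adjusted P = 0.000719, edgeR). Samd9l and Ddx60 responded more in liver than in lung metastases (1.63 ± 0.44 and 2.74 ± 0.70, both called by edgeR).

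The 12 GTPases known for their response to interferon-γ (further Gbp genes and the Irg family) were examined beside Gbp2 and Gbp3. On day 7 in the lungs, their median log2 fold change was 2.66, with 12 of 12 higher, 11 at an unadjusted P value under 0.05 (2.41% of all genes) and 0 called by edgeR. Iigp1, which breaks open pathogen vacuoles, was at 8.72 ± 3.93 CPM (SD, n = 4) labelled off and 124 ± 19.2 CPM (n = 2) labelled on (3.84 ± 0.42, adjusted P = 0.151, edgeR). In the liver on day 7 the median was 0.94 and Iigp1 was at 2.80 ± 2.58 and 4.72 ± 2.85 CPM. Between organs, 8 of the 12 were higher in the lungs than in the pancreas (21.8% of all genes called in either direction) and 6 were lower in the liver than in the lungs (8.57%), led by Gbp4 (3.88 ± 0.41 and -2.69 ± 0.36). In response on day 7, Gbp7 (-1.51 ± 0.48, adjusted P = 0.0362, edgeR) and Tgtp2 (-4.32 ± 1.34, adjusted P = 0.0319) differed between liver and lungs. Among 6 NK, T and B cell markers, the summed level was 1.88, 4.61, 4.70 and 1.59 CPM in lungs day 7 labelled off and 2.15 and 1.73 CPM labelled on.

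Of 13 sensing and adaptor genes and 9 negative regulators, none was called by label. On day 7 the response of Socs1, a suppressor of JAK signaling, was lower in liver than in lung metastases, with a difference of -3.32 ± 0.78 on the log2 scale (adjusted P = 0.00696, edgeR). It was at 5.42 ± 3.93 and 15.5 ± 12.4 CPM in the lungs and 13.7 ± 9.11 and 3.92 ± 0.186 CPM in the liver, labelled off and then on. Tlr3, a receptor of viral RNA, went the other way (1.76 ± 0.54, adjusted P = 0.0307), as did Tlr4 (1.86 ± 0.44) and the kinase Ikbke (1.17 ± 0.38). Trex1 was listed at 0 in all libraries. Of the 10 pathway genes named for a difference in response between liver and lungs (these 4 and Ifnlr1, Ifitm1, Samd9l, Ddx60 and the GTPases Gbp7 and Tgtp2), 2 were still called without the paired-end library, Ifitm1 (-5.23, adjusted P = 0.00613, edgeR) and Ifnlr1 (2.89, adjusted P = 0.0273).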

How the data were processed

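RNA of sorted mKate2-positive tumor cells was sequenced in 35 libraries (TruSeq Stranded mRNA, 75-base single-end reads, 1 liver library labelled paired-end). Per the labels, the authors' processing notes name FastQC 0.11.5, Trimmomatic 0.36, STAR 2.5.3a and featureCounts 1.6.3 and the build mm10 (GRCm38); the strand setting of the counting is not given in the sources used here. The authors deposited raw counts per gene, and 0 other columns of sample values were present. Some items of the genotype and the pathway are not reported here. Samples were grouped by organ, day and Smad4 label from their titles.

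Counts were fitted in R 4.3.3 with edgeR 4.0.16 (limma 3.58.1): TMM scaling, filterByExpr (minimum count 10, total 15), the robust quasi-likelihood test and Benjamini-Hochberg adjustment over all genes tested. Calls needed a change of more than 2-fold and an adjusted P value below 0.05. Label comparisons used the libraries of 1 organ and day; organ, response and day contrasts used 1 fit of 12 groups. Standard errors are of the log2 fold change. Gene lengths for FPKM were exon unions of the reference annotation. The members and lists were chosen with earlier results of these data known. All members could be named; full statistics were given for called members and, where fewer than 3 were called, for the 3 with the lowest P values, and at most 3 called genes per pathway list and comparison, with other values given as description. Tables and plots were made with Python 3.11.15, pandas 2.3.3 and matplotlib 3.10.9.

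Mouse numbers were checked for pairing by the correlation of deviations from group means. Same-numbered libraries deviated together in the lungs on day 14 (0.546, 0.575, 0.653 and 0.598 for numbers 1 to 4), which the labels do not state. Replicates 3 and 4 of both labels had mt-Co3 counts there and replicates 1 and 2 had none. Mouse number and mt-Co3 status can therefore not be told apart, and each library was a different mouse. Alternatives were DESeq2 1.42.0, DESeq2 size factors, no filter, the mouse number as a block, an mt-Co3 covariate, other samples in the fit, no fold threshold, other pseudocounts and leaving out each library. Tested on simulated data with 200 genes changed 4-fold, the fits recovered 35.0% (liver day 7) to 96.5% (pancreas day 14) of them in the 6 label comparisons. The P values measure the spread between libraries of a group. In liver and lung groups that spread holds differences between mice and between libraries with and without mt-Co3 counts. Organ, response and day contrasts take it from all 12 groups.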

Additional observations from a re-analysis of the deposited data

Results flagged for a closer look

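In the 3 groups of 4 libraries, all in the lungs, 96 tests asked whether the highest or lowest library lay far from the other 3, by its gap to the nearest divided by the group's range. Chance flags about 1 in 20 groups. In lungs day 7 labelled off, replicate 1 was far below the rest for Oas1a (6.67 CPM, next 11.6, gap 0.830 of the range) and Xaf1 (4.79 CPM, next 8.06, gap 0.920). In lungs day 14 labelled off, replicate 2 was far above the rest for Irf9 (47.3 CPM, next 32.6, gap 0.830), Oasl2 (46.9 CPM, next 16.2, gap 0.866), Dtx3l (55.5 CPM, next 34.4, gap 0.858), Rtp4 (13.3 CPM, next 5.74, gap 0.837) and Xaf1 (13.1 CPM, next 5.61, gap 0.869). In lungs day 14 labelled on, replicate 4 was far below the rest for Rsad2 (2.69 CPM, next 6.23, gap 0.841).

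The response to the label on day 7 differed between organs in the interaction test for 3 genes. The difference in log2 fold change between liver and pancreas was 2.28 for Oasl1 and 1.18 for Trim25. Between liver and lungs it was 2.08 for Oasl1 and -2.80 for Gbp2. None of these 4 calls held without the paired-end liver library.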

How the results depend on the processing

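The cause of the following changes in the number of members called was not tested. Where the share of all genes called is not given above, a count does not show whether members moved more than other genes. With DESeq2, 17 members were called in liver day 7, 3 in lungs day 7, 1 in liver day 14, 1 in lungs day 14 and 4 in the response of liver against pancreas on day 7. Without a filter, the counts were 1 (pancreas day 7), 4 (liver day 7), 2 (lungs day 7), 1 (liver against lungs) and 0 and 1 (response on day 7 of liver against pancreas and against lungs). One fit of all 12 groups gave 0 in pancreas day 14 and 12 in liver day 7. Fitting only the groups compared gave 1 (liver against lungs), 0 and 1 (the same responses). The mt-Co3 covariate gave 6 (liver day 7), 8 (liver against pancreas), 7 (lungs against pancreas) and 5 (response of liver against pancreas). With no fold threshold, 12 were called in pancreas day 14, 13, 10 and 9 between liver and pancreas, lungs and pancreas, and liver and lungs.

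The replicate block on the mouse number gave 1 member in lungs day 14, 6 in lungs against pancreas and 0 in the response of liver against pancreas. With it, Rsad2 in pancreas day 14 (adjusted P = 0.0518, edgeR) and Gbp2 in the response of liver against lungs on day 7 (adjusted P = 0.0925) were not called. Outside lungs day 14 the numbers did not pair the samples: correlations of deviations were -0.12 and -0.24 (pancreas day 7), 0.05 and 0.07 (pancreas day 14), 0.35 and -0.35 (liver day 7), 0.05, 0.03 and 0.48 (liver day 14) and 0.40 and -0.35 (lungs day 7). With the block, Smad4 differed by -2.35 in pancreas day 7 and -2.78 in liver day 7 and no longer passed. It passed in liver day 14 with DESeq2 (-2.95), no filter (-2.92) and the fit of all groups (-2.89), and in lungs day 7 with the same settings (-2.20, -2.21 and -2.22). At a pseudocount of 5 the score differed by 0.30 in pancreas day 14 and 0.70 in lungs day 7.

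Leaving out each library in turn gave 0 to 3 called members in pancreas day 14, 0 to 10 in liver day 7, 4 to 7 (liver against pancreas), 3 to 6 (lungs against pancreas), 1 to 4 (liver against lungs), 0 to 4 in each liver response on day 7, 0 to 2 for day in the liver and 0 elsewhere. The score ranged from 0.10 to 0.67 (pancreas day 7), 0.40 to 0.52 (pancreas day 14), 1.04 to 1.53 (liver day 7), -0.14 to 0.66 (liver day 14), 0.84 to 1.08 (lungs day 7) and 0.49 to 0.90 (lungs day 14). Smad4 ranged from -2.38 to -2.20, -2.38 to -2.24, -2.96 to -2.55, -3.07 to -2.72, -2.29 to -2.08 and -2.70 to -2.56 in the same order. Ifit3 in liver day 14 ranged from -2.94 (without labelled off replicate 2) to 0.36 (without labelled off replicate 1). Members at few counts, down to 9, carry the most counting error. In refits that leave 1 library in a group, that library is taken to vary like the other group.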
